A study of Mus musculus with 36 samples.

Results

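Cd3d, Cd3e, Cd3g, Cd4, Cd8a, Lck, Cd2, Icos and Gata3 are transcripts of T lymphocytes, and Icos and Gata3 are also made by group 2 innate lymphoid cells (ILC2). Their levels were read in macrophage preparations from lung lavage. The study's own counts of the cell types in lavage were not used here. A gene was taken where a feature of the deposited table, that is 1 transcript cluster of the array, was annotated with its symbol and no other. Of the 9 genes, 8 had such a feature, 1 each, out of 28940 features analysed. Lck was not analysed here.

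RNA came from lavage cells of male Scnn1b-Tg mice (Tg) and of wild-type littermates (WT) on the C57BL/6N background, and was hybridised to 36 arrays of the type Affymetrix Mouse Gene 1.0 ST. The transgene Scnn1b is driven by the Scgb1a1 promoter in airway club cells, and its product, a subunit of the sodium channel ENaC, dries the airway surface. Housing was specific-pathogen-free (SPF) for mice of postnatal day (PND) 0, 3, 10 and 42, and a further set of PND 42 was germ-free (GF) and kept in a separate facility. There were thus 5 groups in each genotype, 10 in all, with 3 arrays for PND 0 and for GF mice and 4 for each of the others. Each array of PND 0, 3 and 10 held cells pooled from 3 pups, and each array of PND 42 those of a single mouse. Cells bearing Ly-6G, a granulocyte marker, were removed with beads in all groups. Nothing in this step removes lymphocytes, dendritic cells or shed epithelial cells.

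The CD3 proteins (gamma, delta and epsilon) carry the T cell receptor to the surface and start its signal, and the kinase Lck acts on them. Cd4 and Cd8a encode co-receptors that mark helper and cytotoxic T cells. Icos is a costimulatory receptor of activated T cells and of ILC2, and Gata3 is the transcription factor that type 2 helper cells and ILC2 depend on. ILC2 reside in the lung, lack the T cell receptor and release interleukin 13, a cytokine that drives mucus production. Cd2 encodes an adhesion receptor of T and NK cells.

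Cd3g, Cd3d and Cd3e lie next to each other on chromosome 9, and Cd3g and Cd3d are transcribed away from each other. Their upstream sequences are shown because the 3 genes were measured by separate features and their changes are set side by side below. Each is a stretch of 190 bases upstream of the start that RefSeq's promoter window is set on, on the gene's own strand, from RefSeq on build GRCm38.p6. The stretch stops short of that start, and the bases next to the start were neither shown nor searched. Capitals mark the E box CAGGTG, which E proteins bind in T cells, and the GATA sequence AGATAA, each on either strand (CACCTG and TTATCT). The letters of these motifs did not overlap in these sequences. CAGGTG was held by 13.8% and AGATAA by 8.06% of the 32851 promoter windows of this length. Cd3g held 1 of each, Cd3d held 1 E box, and neither set of letters was in the stretch shown for Cd3e.
Cd3g, chr9:44980492-44980681, minus strand: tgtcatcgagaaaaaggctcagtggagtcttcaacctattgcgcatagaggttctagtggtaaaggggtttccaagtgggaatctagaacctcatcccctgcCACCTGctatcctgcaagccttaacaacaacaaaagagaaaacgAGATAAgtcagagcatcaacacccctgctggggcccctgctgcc
Cd3d, chr9:44981536-44981725, plus strand: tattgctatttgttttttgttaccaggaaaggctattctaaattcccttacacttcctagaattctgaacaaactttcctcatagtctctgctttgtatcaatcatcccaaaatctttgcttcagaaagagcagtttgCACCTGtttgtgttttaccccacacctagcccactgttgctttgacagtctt
Cd3e, chr9:45009672-45009861, minus strand: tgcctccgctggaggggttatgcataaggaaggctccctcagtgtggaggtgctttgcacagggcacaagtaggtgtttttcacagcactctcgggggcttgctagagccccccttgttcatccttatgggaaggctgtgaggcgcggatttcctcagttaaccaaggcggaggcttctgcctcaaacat

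Values are log2 intensities, and the medians of the arrays lay between 3.72 and 4.06. A group mean at or below 4.06 is called near background here. A fold change against such a group is written with "at least", since background can hide part of the change. These words refer to background alone. The fold is the estimate itself, and the error given by the SE can put it lower. The cells carried the markers of macrophages throughout: all 12 measured genes of that list had group means above 4.06 in every group, and their mean was between 7.92 and 10.19 in single arrays. At PND 42 in GF housing, Tg replicate 3 stood apart in lymphocyte genes. Of 87 measured genes of the T cell, ILC2 and NK lists with the 8 transcripts included, 63 (72.4%) had their highest value of that group in it, against 29.2% of all features. For the Tg minus WT comparison in GF mice, counts of genes with an adjusted p under 0.05 are therefore given with and without it. So are the differences of named genes that lost their call or moved by over 1.5 times. For the NK, B and plasma cell, thymocyte, macrophage and epithelial lists these counts were the same in both fits. Groups that did not overlap were counted only with it.

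In pups the transcripts other than Cd2 were near background, and a higher level of some of them was found in adult Tg mice. At PND 42 Icos and Cd3e were higher in Tg than in WT mice in both housings, and in GF mice Cd3d, Cd3g, Cd8a and Gata3 were higher as well. The calls for Cd3d, Cd3g and Cd8a were lost without GF Tg replicate 3, and those for all 4 when only the compared groups were fitted. Cd3e in SPF housing, where the genotypes overlapped, also lost its call in that fit. Cd4 passed the test in no comparison. Cd2 went its own way, with a level above 4.06 in every array, a rise from PND 0 to PND 3 in both genotypes and a lower level in Tg mice at PND 3 and PND 10. A bulk array cannot tell fewer cells of a type from less RNA per cell, so that these levels do not count lymphocytes.

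**Figure D1:**
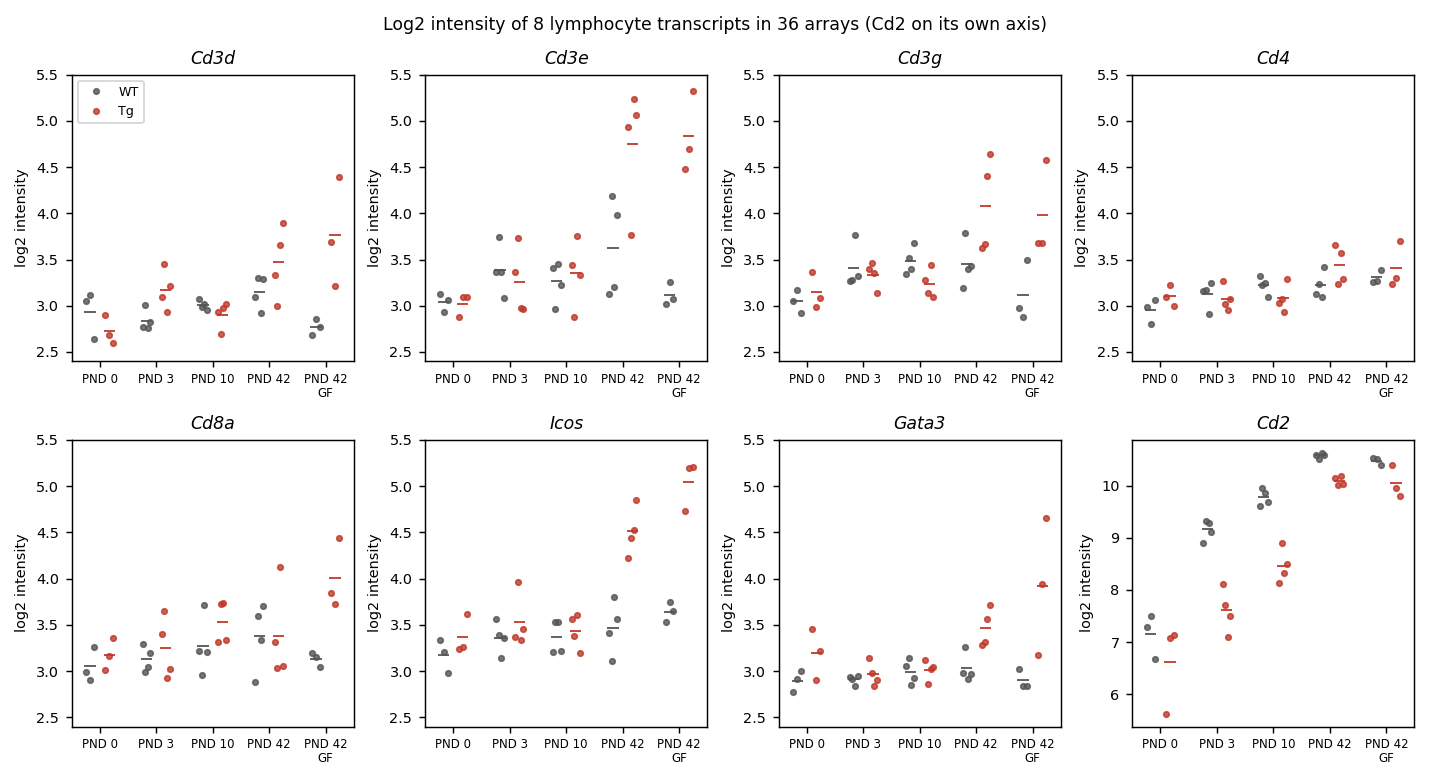
Log2 intensity of the 8 transcripts in each of the 36 arrays, by age and housing, for WT (grey) and Tg (red) mice. Points are arrays and bars are group means. Adult Tg arrays stand above the others for Icos and most Cd3e arrays, Cd4 stays between 2.80 and 3.70, and Cd2, on its own axis, climbs from PND 0 to PND 42.

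Cd3e encodes the epsilon chain of the CD3 complex. At PND 42 in SPF housing its log2 intensity was 3.13, 4.19, 3.20 and 3.98 in the WT arrays and 4.93, 3.77, 5.24 and 5.06 in the Tg arrays. In GF mice it was 3.02, 3.26 and 3.07 in WT and 4.48, 4.69 and 5.32 in Tg. All 3 GF Tg arrays lay above all GF WT arrays, whereas in SPF housing Tg replicate 2 fell within the range of the WT arrays and the other 3 lay above it. The difference was 1.12 (SE 0.26, adjusted p = 0.0065) in SPF housing, a fold of at least 2.18, and 1.71 (SE 0.30, adjusted p = 0.00031) in GF housing, at least 3.28-fold, by limma with Benjamini-Hochberg adjustment. The GF difference was 1.47 (adjusted p = 0.0081) without Tg replicate 3. When only the compared groups were fitted, Cd3e in SPF housing lost the call with the same difference (adjusted p = 0.096).

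Across the 10 groups Cd3e was highest in Tg PND 42 GF (4.83 ± 0.44, SD, n = 3) and Tg PND 42 SPF (4.75 ± 0.67, n = 4). The next group, WT PND 42 SPF, had a mean of 3.63 ± 0.54 (n = 4), and its replicates 2 and 4 reached the level of Tg replicate 2. The other 7 groups followed in steps smaller than their spread, from 3.39 ± 0.27 in WT PND 3 down to 3.02 ± 0.13 in Tg PND 0. Single pup arrays did not pass 3.75 in either genotype.

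Cd3g and Cd3d encode the gamma and delta chains. For Cd3g the SPF arrays of PND 42 read 3.19, 3.79, 3.40 and 3.43 in WT and 3.62, 3.67, 4.40 and 4.64 in Tg, and the GF arrays 2.98, 2.88 and 3.49 in WT and 3.68, 3.68 and 4.58 in Tg. The GF groups did not overlap, and in SPF housing 2 of the 4 Tg arrays were above all WT arrays. Both GF means were near background, 3.12 in WT and 3.98 in Tg. Its difference was 0.86 in GF mice (SE 0.23, adjusted p = 0.022) and 0.63 in SPF mice (SE 0.20, adjusted p = 0.068), where the 95% interval was 0.22 to 1.03. Without Tg replicate 3 the GF difference was 0.56 (adjusted p = 0.31).

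Cd3d read 3.10, 3.30, 2.92 and 3.29 in the SPF WT arrays of PND 42 and 3.33, 3.00, 3.66 and 3.89 in the Tg arrays. In GF mice it read 2.68, 2.86 and 2.77 in WT and 3.69, 3.21 and 4.39 in Tg. Of the 36 arrays only GF Tg replicate 3 was above 4.06 for Cd3d, and the gene was near background in all 10 groups. Every GF Tg array was above every GF WT array, with a difference of 0.99 (SE 0.20, adjusted p = 0.0022), and without Tg replicate 3 it was 0.68 (adjusted p = 0.057). The SPF difference was 0.32 (95% interval -0.04 to 0.68, adjusted p = 0.47).

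Cd8a and Cd4 are the co-receptor genes. Cd8a read 2.88, 3.60, 3.34 and 3.70 in the SPF WT arrays of PND 42 and 3.31, 3.03, 4.13 and 3.06 in the Tg arrays, while the GF arrays read 3.20, 3.15 and 3.04 in WT and 3.84, 3.73 and 4.44 in Tg. The GF groups did not overlap and the SPF groups did. The gene was near background in all 10 groups, and 2 of the 36 arrays were above 4.06. Cd8a passed in GF mice (difference 0.87, SE 0.24, adjusted p = 0.031), but without Tg replicate 3 the difference was 0.65 (adjusted p = 0.29). It also lost the call, with differences from 0.83 to 0.91, when any 1 of the 3 GF WT arrays was left out. In SPF mice the difference was 0.0035 (95% interval -0.43 to 0.43).

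Cd4 ranged from 2.80 to 3.70 over the 36 arrays, was near background in all 10 groups and was above 4.06 in none of the arrays. Its mean was highest in Tg PND 42 SPF (3.44 ± 0.21, n = 4) and lowest in WT PND 0 (2.95 ± 0.13, n = 3), and neighbouring groups differed by less than their spread. At PND 42 the Tg minus WT difference was 0.22 (95% interval -0.005 to 0.45) in SPF mice and 0.11 (-0.16 to 0.37) in GF mice. A p that misses the threshold does not show that the groups were alike, and these intervals give the differences that remain possible.

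Icos separated the genotypes of PND 42 in every array. Its SPF arrays of PND 42 read 3.41, 3.11, 3.80 and 3.56 in WT and 4.22, 4.44, 4.53 and 4.85 in Tg. The GF arrays read 3.53, 3.75 and 3.65 in WT and 4.73, 5.20 and 5.21 in Tg. No Tg array overlapped the WT arrays in either housing. The difference was 1.04 in SPF mice (SE 0.16, adjusted p = 3.93e-05, at least 2.06-fold) and 1.40 in GF mice (SE 0.18, adjusted p = 4.13e-06, at least 2.65-fold). Without GF Tg replicate 3 it was 1.32 (adjusted p = 0.00013).

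Over the 10 groups Icos was highest in Tg PND 42 GF (5.05 ± 0.28, n = 3), followed by Tg PND 42 SPF (4.51 ± 0.26, n = 4). The remaining 8 groups lay near background between 3.64 ± 0.11 in WT PND 42 GF and 3.18 ± 0.18 in WT PND 0, each within the spread of its neighbours. The highest value in any pup array was 3.96, in Tg PND 3 replicate 2.

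Gata3 was near background in all 10 groups. It read 2.98, 3.26, 2.91 and 2.97 in the SPF WT arrays of PND 42 and 3.28, 3.31, 3.56 and 3.71 in the Tg arrays, which lay above all of them by a small margin. In GF mice it read 3.02, 2.84 and 2.84 in WT and 3.17, 3.94 and 4.66 in Tg, again without overlap but with the widest spread of any group of this gene (SD 0.74). The difference was 1.03 in GF mice (SE 0.20, adjusted p = 0.0012) and 0.66 without Tg replicate 3 (adjusted p = 0.028). In SPF mice it was 0.44 (95% interval 0.08 to 0.79, adjusted p = 0.20).

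Counted together, 2 of the 8 transcripts were higher in Tg mice of PND 42 in SPF housing, where 2.72% of all features were, and 6 of 8 were higher in GF housing, where 3.14% were. The median difference of the 8 was 0.38 in SPF and 0.93 in GF mice, against -0.02 over all features in each. Without GF Tg replicate 3, Icos, Cd3e and Gata3 remained past the threshold, 3 of 8, with 1.77% of all features higher in that fit. In the fit on the compared groups alone 2 of 8 passed in GF mice, and the share of all features was not taken for that fit. Groups did not overlap for 7 of 8 transcripts in GF mice, 6 with Tg above and Cd2 with Tg below, where 21.3% of all features did not overlap. In SPF mice this held for 3 of 8, where 11.2% of all features did not overlap.

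**Figure D2:**
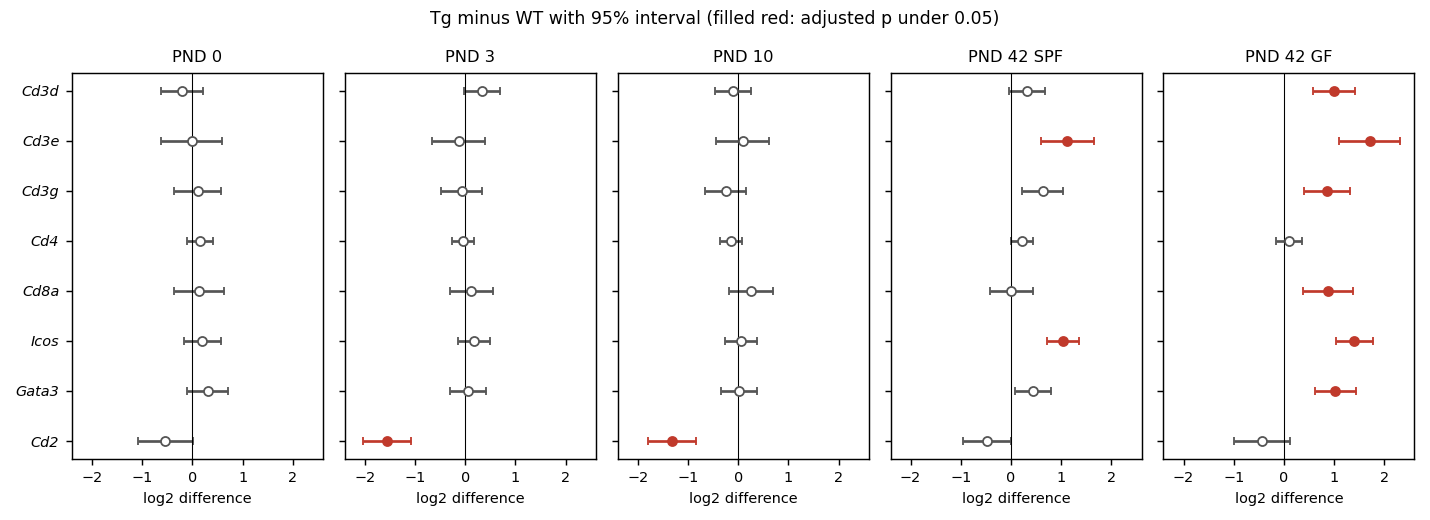
Tg minus WT log2 difference of the 8 transcripts at each age and housing, with 95% intervals from the fit of all 36 arrays. Filled red points passed an adjusted p of 0.05. At PND 3 and 10 Cd2 alone passed, with lower levels in Tg, and at PND 42 Icos and Cd3e passed in both housings.

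In pups the T cell receptor genes, Icos and Gata3 did not pass the test between genotypes. At PND 0 none of the 8 passed, and none had an unadjusted p under 0.05, while 4.33% of all features passed in either direction. At PND 3 and at PND 10 only Cd2 did, 1 of 8 each, against 4.05% and 1.57% of all features. Leaving Cd2 aside, the differences at these 3 ages ran from -0.25 for Cd3g at PND 10 to 0.34 for Cd3d at PND 3. Tests of whether the Tg effect itself changed with age were passed by Icos, by 0.98 from PND 10 to PND 42 (SE 0.22, adjusted p = 0.026) and by 0.87 from PND 3 to PND 42 (SE 0.22, adjusted p = 0.042). There 0.639% and 1.23% of all features passed. Cd3e had a similar or larger value with a wider error, 1.04 (SE 0.37, adjusted p = 0.35) and 1.25 (SE 0.37, adjusted p = 0.10). The calls for Icos were lost when single arrays were left out, as given in the closing section.

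The adult level in Tg mice was also compared with that of Tg pups. From PND 10 to PND 42 in Tg mice, 4 of 8 transcripts rose, Icos by 1.08 (SE 0.16, adjusted p = 4.89e-05), Cd3e by 1.40 (SE 0.26, adjusted p = 0.00086), Cd3g by 0.84 (SE 0.20, adjusted p = 0.0085) and Cd2 by 1.63. Of all features 2.58% rose there. Without Tg PND 42 SPF replicate 4 the rise of Cd3g was 0.66 (adjusted p = 0.071). In WT mice over the same interval none of the 8 passed, 1 had an unadjusted p under 0.05 (Cd2), and 2.50% of all features passed in either direction. From PND 3 to PND 10 none of the 8 passed in WT mice (0.131% of all features) or in Tg mice (1.45%), with Cd2 having an unadjusted p under 0.05 in both. This comparison and the Tg minus WT comparison at PND 42 share the Tg arrays of PND 42 in SPF housing.

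Housing moved none of the 8 past the threshold, in WT mice (0.0657% of all features passed) or in Tg mice (0.142%). In Tg mice 3 had an unadjusted p under 0.05, namely Icos with 0.54 (adjusted p = 0.31), Gata3 with 0.46 (adjusted p = 0.50) and Cd8a with 0.62 (adjusted p = 0.41), all higher in GF. In WT mice none did. Whether the Tg effect differed between GF and SPF mice was tested directly by limma, and none of the 8 passed, with 0.00346% of all features passing and 3 of the 8 at an unadjusted p under 0.05 (Cd8a, Cd3d and Gata3). The effect in GF mice minus that in SPF mice was 0.87 for Cd8a (95% interval 0.21 to 1.52), 0.67 for Cd3d (0.12 to 1.23), 0.59 for Gata3 (0.05 to 1.13), 0.59 for Cd3e (-0.22 to 1.39), 0.36 for Icos (-0.13 to 0.85), 0.23 for Cd3g (-0.39 to 0.85), 0.05 for Cd2 (-0.68 to 0.78) and -0.12 for Cd4 (-0.46 to 0.23). GF housing and its separate facility cannot be told apart.

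Cd2 had another course. It was above 4.06 in all 36 arrays, with an average of 9.05. In WT mice it read 7.29, 7.50 and 6.68 at PND 0, 8.90, 9.33, 9.29 and 9.12 at PND 3, 9.62, 9.95, 9.86 and 9.68 at PND 10, and 10.58, 10.52, 10.63 and 10.59 at PND 42. In Tg mice it read 5.63, 7.08 and 7.14 at PND 0, 8.12, 7.72, 7.09 and 7.51 at PND 3, 8.13, 8.91, 8.32 and 8.50 at PND 10, and 10.14, 10.01, 10.18 and 10.04 at PND 42. Each WT age lay above the one before without overlap, and at PND 3 and later every Tg array lay below every WT array of its age.

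The Tg minus WT difference of Cd2 was -1.55 at PND 3 (SE 0.23, adjusted p = 5.96e-05) and -1.31 at PND 10 (SE 0.23, adjusted p = 0.0011), that is 0.341-fold and 0.402-fold of the WT intensity. It was -0.54 at PND 0 (SE 0.27, adjusted p = 0.31), -0.49 at PND 42 in SPF mice (SE 0.23, adjusted p = 0.35) and -0.43 in GF mice (SE 0.27, adjusted p = 0.54). The GF arrays read 10.54, 10.51 and 10.39 in WT and 10.39, 9.95 and 9.80 in Tg. From PND 0 to PND 3 it rose by 2.00 in WT (SE 0.25, adjusted p = 2.61e-07), 1 of 8 where 14.0% of all features rose, and by 0.99 in Tg (SE 0.25, adjusted p = 0.0026), again 1 of 8, where 16.0% rose. The Tg rise was 0.50 (adjusted p = 0.095) without Tg PND 0 replicate 1.

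Genes whose levels followed Cd2 most closely over the 36 arrays were Pros1 (Pearson r = 0.96), Flt1 (0.95), Lpin1 (0.94) and Mavs (0.94). This list for Cd2 was made after its values were seen. Protein S, made from Pros1, is an anticoagulant and a ligand of receptors for dying cells, and Flt1 is a receptor for vascular endothelial growth factor. Of the 12 macrophage genes, 3 were lower in Tg mice at PND 0 (list median -0.48), 3 at PND 3 (median -0.12) and 1 at PND 10 (median 0.05), and none was higher at these ages. Over all features 4.33%, 4.05% and 1.57% passed in either direction at PND 0, 3 and 10. Their medians were -0.02, 0.001 and 0.01. Shares of lower features alone are not given here. The part of macrophages in the Cd2 differences was not tested.

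Other genes of the T cell receptor pathway and of T cell identity were taken from lists. Of all features 1.77% were lower in Tg mice of PND 42 in SPF housing and 1.77% in GF housing, beside the shares of higher features given above. Of 15 measured receptor and co-receptor partners, 2 were higher in Tg mice of PND 42 in SPF housing and 3 in GF housing, and none was lower. Ctla4, an inhibitory receptor of activated and regulatory T cells, was in both sets (0.80, adjusted p = 0.028, and 1.22, adjusted p = 0.0025 for SPF and GF mice). The other SPF gene was the costimulatory receptor Cd28 (0.60, adjusted p = 0.037). The other GF genes were Thy1, a surface protein of T cells and ILC2 (2.58, adjusted p = 0.0041), and Lax1, an adaptor that dampens receptor signals (0.60, adjusted p = 0.022). In GF mice none of the 15 passed without Tg replicate 3. The difference was then 2.21 for Thy1 (adjusted p = 0.057), 0.83 for Ctla4 (adjusted p = 0.065) and 0.37 for Lax1 (adjusted p = 0.32).

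Thy1 read 3.56, 5.28, 3.95 and 4.49 in the SPF WT arrays and 5.44, 5.39, 6.23 and 5.69 in the Tg arrays. The groups did not overlap, but the difference did not pass (1.37, adjusted p = 0.13). Cd247, the zeta chain of the CD3 complex, and the kinase Zap70 were picked out after their values were seen, and neither passed. Cd247 differed by -0.11 (adjusted p = 0.86) in SPF and 0.27 (adjusted p = 0.47) in GF mice, and Zap70 by 0.18 (adjusted p = 0.41) and 0.34 (adjusted p = 0.056).

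In the list of T cell receptor signalling, 16 genes were measured. In SPF mice none was higher and 2 were lower in Tg, and in GF mice 3 were higher and 2 lower. The genes that fell in both housings were the adaptor Grap2 (-1.51, adjusted p = 0.0018, and -1.85, adjusted p = 0.00093) and Tespa1, a signalling protein of developing T cells (-0.49, adjusted p = 0.014, and -0.57, adjusted p = 0.014). Grap2 read 6.68, 6.67, 6.92 and 6.85 in the SPF WT arrays and 5.82, 5.57, 5.24 and 4.46 in the Tg arrays, well above background in all of them. The genes that rose in GF mice were Rasgrp1, which activates Ras downstream of the receptor (1.25, adjusted p = 0.0075), the adaptor Sh2d2a (1.13, adjusted p = 0.0028) and the kinase Prkcq (0.80, adjusted p = 0.0070). Without GF Tg replicate 3, 1 was higher, Sh2d2a (0.64, adjusted p = 0.0497), and 2 were lower, where 143 of all 28940 features were lower. Rasgrp1 then differed by 0.89 (adjusted p = 0.14) and Prkcq by 0.48 (adjusted p = 0.16).

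Of 20 measured genes of T cell identity and homing, 5 were higher in Tg mice of PND 42 in SPF housing and 9 in GF housing, and none was lower. The median difference of the list was 0.26 and 0.70. Il7r, the interleukin 7 receptor chain that naive T cells and ILC2 depend on, changed most in both (4.27, adjusted p = 1.47e-08, and 4.96, adjusted p = 2.28e-08). Il2ra, a chain of the high-affinity receptor for interleukin 2, rose in both as well (1.09, adjusted p = 0.0050, and 1.86, adjusted p = 4.64e-05), and so did Ccr7, which guides T cells and migrating dendritic cells to lymph nodes (0.94, adjusted p = 0.011, and 1.48, adjusted p = 0.00045). Bcl11b, a T lineage transcription factor, rose by 0.71 in SPF mice (adjusted p = 0.020) with groups that overlapped, and by 0.74 in GF mice (adjusted p = 0.042) with groups that did not. Its GF difference was 0.54 (adjusted p = 0.35) without Tg replicate 3. In GF mice Il2rb, another chain of the interleukin 2 receptor, rose by 1.91 (adjusted p = 3.84e-05) and the chromatin organiser Satb1 by 1.63 (adjusted p = 0.0014). The count in GF mice was 5 of 20 without Tg replicate 3, and Satb1 was then at 1.07 (adjusted p = 0.035).

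Il7r took another course in pups than Cd3e, Icos and Gata3. Its mean was 9.42 ± 0.16 in Tg PND 3 and 9.17 ± 0.18 in Tg PND 10 (SD, n = 4 each), against 6.32 ± 0.92 and 6.40 ± 0.99 in WT. The differences passed at both ages (3.10, adjusted p = 7.92e-06, and 2.78, adjusted p = 6.64e-05), when the 3 transcripts were near background in both genotypes. At PND 3 S1pr1, the receptor by which lymphocytes leave lymphoid organs and which endothelium also carries, was higher too (1.92, adjusted p = 8.11e-05), as was the transcription factor Klf2 (0.82, adjusted p = 0.033).

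Among 15 measured genes of ILC2 and type 2 lymphocytes, 2 were higher in Tg mice of PND 42 in SPF housing and 4 in GF housing, and none was lower. Il13 read 3.33, 3.04, 3.48 and 3.31 in the SPF WT arrays and 7.29, 5.92, 4.97 and 5.70 in the Tg arrays. In GF mice it read 3.39, 3.30 and 3.53 in WT and 5.77, 6.80 and 7.67 in Tg. Every Tg array lay above every WT array, with differences of 2.68 (SE 0.41, adjusted p = 4.40e-05, at least 6.42-fold) and 3.34 (SE 0.47, adjusted p = 1.61e-05, at least 10.2-fold). Without GF Tg replicate 3 the GF difference was 2.88 (adjusted p = 0.00060).

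Il4, the cytokine of type 2 helper cells and also of basophils, passed in GF mice (1.66, adjusted p = 0.00066, and 0.97, adjusted p = 0.0034, without Tg replicate 3). Its GF Tg arrays read 3.90, 3.54 and 5.78, with the last far above the others. The receptors Il18r1 (1.00, adjusted p = 0.0051) and Klrg1 (0.59, adjusted p = 0.041) also rose there, and Hpgds, a prostaglandin D synthase, rose in SPF mice (1.19, adjusted p = 0.022). Without Tg replicate 3, 2 of 15 passed in GF mice, and the differences were 0.79 for Il18r1 (adjusted p = 0.088) and 0.36 for Klrg1 (adjusted p = 0.45). Il1rl1, the receptor for interleukin 33 on ILC2, was not analysed here.

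Il13 had an earlier high point in WT pups. In WT PND 10 it was 5.17 ± 0.49 (n = 4, 4.59 to 5.77) and in Tg PND 10 4.16 ± 1.08 (n = 4), while at PND 3 it was 3.51 ± 0.38 in WT and 3.46 ± 0.24 in Tg. From PND 10 to PND 42 the change was -1.88 in WT mice (adjusted p = 0.0073) and 1.81 in Tg mice (adjusted p = 0.0060), and the difference between these changes was 3.69 (SE 0.58, adjusted p = 0.00043). Icos was at 3.37 ± 0.18 and Gata3 at 2.99 ± 0.13 in WT PND 10, both near background.

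**Figure D3:**
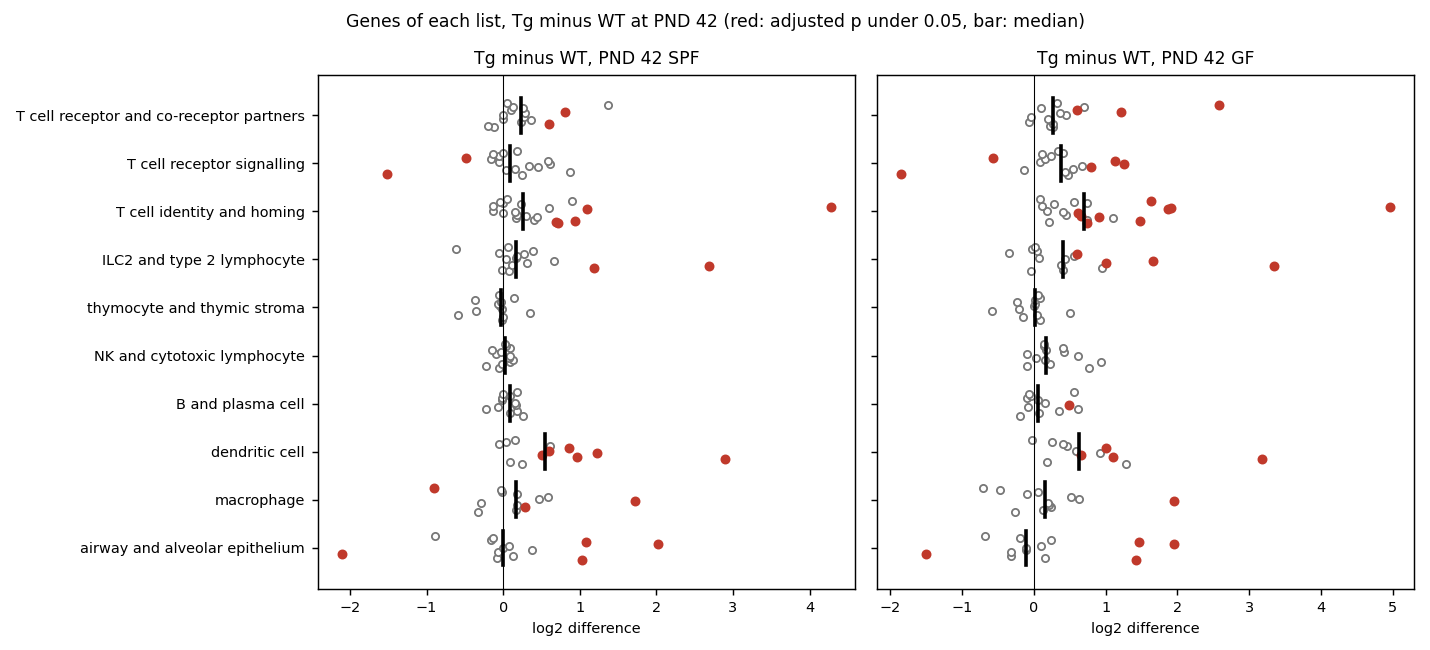
Tg minus WT log2 difference at PND 42 for the measured genes of 10 lists, in SPF and GF mice. Each point is a gene, red where its adjusted p was under 0.05, and black bars are list medians. The medians of the T cell identity list are 0.26 and 0.70, those of the dendritic cell list 0.55 and 0.62, and those of the thymocyte list -0.03 and 0.01.

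Lists of other cells that a lavage fraction without Ly-6G could hold were read beside these results. Of 12 dendritic cell genes, 6 were higher in Tg mice of PND 42 in SPF housing and 4 in GF housing. The mean of the list was 4.72 to 4.86 in single SPF WT arrays and 5.30 to 5.67 in SPF Tg arrays, and 4.72 to 4.84 in GF WT arrays and 5.43 to 5.93 in GF Tg arrays. Ccl17, a chemokine for type 2 helper cells, changed most (2.89, adjusted p = 0.0036, and 3.17, adjusted p = 0.0060), and Ccl22, another such chemokine, rose in both (0.96, adjusted p = 0.0027, and 1.11, adjusted p = 0.0028). Both chemokines are also made by macrophages. Clec9a, a receptor of cross-presenting dendritic cells, rose in SPF mice (1.23, adjusted p = 0.014). Itgae, an integrin of airway dendritic cells and of resident T cells, rose in both (0.85, adjusted p = 0.028, and 1.00, adjusted p = 0.024), and so did the lectin Cd209a (0.51, adjusted p = 0.027, and 0.66, adjusted p = 0.011), whose GF groups overlapped. Without GF Tg replicate 3, 2 of 12 passed in GF mice, Ccl17 and Ccl22, while Itgae was at 0.55 (adjusted p = 0.37) and Cd209a at 0.35 (adjusted p = 0.23). Xcr1, Zbtb46, Siglech, Btla, Batf3 and Ly75 passed in neither housing. The part of dendritic cells in the Cd3e and Icos results was not tested.

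Of 13 NK and cytotoxic genes none passed by limma in either housing, while 0 in SPF mice and 3 in GF mice had an unadjusted p under 0.05. Those of highest mean were Ccl5, a chemokine of T and NK cells (-0.06, adjusted p = 0.99, and 0.77, adjusted p = 0.44), and the granule protease Gzma (0.09, adjusted p = 0.97, and 0.94, adjusted p = 0.057). Gzma differed by 0.50 (adjusted p = 0.57) and Ccl5 by 0.40 (adjusted p = 0.92) in GF mice without Tg replicate 3. The list's mean was 3.45 to 3.80 in GF WT arrays and 3.67 to 4.33 in GF Tg arrays. Of 12 B and plasma cell genes none passed in SPF mice (1 at an unadjusted p under 0.05), where Cd22, an inhibitory receptor, and Cd79a, a chain of the B cell receptor, had the highest means (0.09, adjusted p = 0.94, and 0.18, adjusted p = 0.95). In GF mice 1 was higher, Fcer2a, a receptor for immunoglobulin E (0.49, adjusted p = 0.011).

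Of 12 thymocyte and thymic stroma genes none passed by limma at PND 42, with 2 in SPF mice and 1 in GF mice at an unadjusted p under 0.05. Cd1d1, which presents lipids and is not limited to the thymus, differed by -0.35 (adjusted p = 0.79) in SPF mice and -0.58 (adjusted p = 0.57) in GF mice. Its GF difference was -0.354 (adjusted p = 0.92) without Tg replicate 3. The chemokine Ccl25 differed by -0.59 (adjusted p = 0.17) in SPF mice and 0.05 (adjusted p = 0.99) in GF mice, and by 0.0057 in GF mice without Tg replicate 3. Over all 36 arrays the mean of the list stayed between 3.23 and 3.78.

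Of the 12 macrophage genes 2 were higher and 1 lower in Tg mice of PND 42 in SPF housing, and 1 was higher in GF housing. Fabp4, a lipid carrier of alveolar macrophages, rose in both (1.72, adjusted p = 0.00058, and 1.95, adjusted p = 0.00073), and Cd68, a lysosomal protein, rose in SPF mice (0.28, adjusted p = 0.022). Siglecf, a surface marker of alveolar macrophages, fell in SPF mice (-0.90, adjusted p = 0.0045) and differed by -0.71 in GF mice (adjusted p = 0.077). The list medians were 0.17 and 0.16. Epithelial RNA was highest in newborns, when the T cell transcripts were near background. The mean of 13 airway and alveolar genes was 7.71 to 8.44 in single WT PND 0 arrays and 7.80 to 8.33 in Tg PND 0 arrays, and 4.48 to 5.26 in all later arrays. At PND 42, 3 of the 13 were higher and 1 lower in Tg mice in each housing. Scgb1a1, the club cell secretory protein, rose (2.02, adjusted p = 0.0030, and 1.96, adjusted p = 0.016), as did Scgb3a2, another such protein (1.08, adjusted p = 0.0023, and 1.46, adjusted p = 0.00039), and the adhesion protein Cdh1 (1.03, adjusted p = 0.00047, and 1.42, adjusted p = 4.24e-05). The adhesion protein Epcam fell (-2.10, adjusted p = 5.43e-07, and -1.50, adjusted p = 0.00081). The part of epithelial cells in the lymphocyte results was not tested.

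Genes with the most similar pattern over the 36 arrays were sought among 17979 genes. For Cd3e these were Lhx2 (Pearson r = 0.87), Stat4 (0.87), Il2rb (0.87) and Aldh1a2 (0.86), and for Icos they were Lhx2 (0.90), Il2ra (0.89), Nr4a3 (0.88) and Aldh1a2 (0.88). Lhx2, a transcription factor, had means of 5.51 and 5.55 in adult SPF and GF Tg mice, against 3.14 and 3.00 in adult WT mice and between 2.72 and 3.35 in the groups of pups. Stat4 carries the signal of interleukin 12, Aldh1a2 makes retinoic acid, and Nr4a3 is a nuclear receptor. For Gata3 the closest were Bcat1 (0.88), Il2ra (0.87), Ephx2 (0.86) and Sh2d2a (0.85), and for Cd8a Il2rb (0.68), Cd40 (0.67), Runx3 (0.66) and Nkg7 (0.64). All these values share the 36 arrays, and the coefficients describe the pattern and no more.

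Among the 8 transcripts themselves the CD3 genes were closest, with r of 0.83 for Cd3d with Cd3e, 0.82 for Cd3e with Cd3g and 0.79 for Cd3d with Cd3g over the 36 arrays. Cd3e with Icos had 0.81 and Icos with Gata3 had 0.77. Cd2 stood farthest from the others, with r from 0.17 with Gata3 to 0.56 with Cd4.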

How the data were processed

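The authors deposited log2 intensities of 36 Affymetrix Mouse Gene 1.0 ST arrays. For each array 12 ng of RNA was amplified into cDNA. Intensities were made with RMA in Partek (version 6.5 in the submitters' processing notes): background adjustment, quantile normalization and median polish. The table holds 35556 features, of which 6616 without annotation, presumed array controls, were left out. Of the 28940 features analysed, 21218 had 1 symbol, 1881 several and 5841 none in GEO's platform annotation. No column was unused (0 columns), and no 2 arrays held equal values. The number of arrays limits the precision.

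limma 3.58.1 in R 4.3.3 fitted 1 mean per group to all 36 arrays, with 17 two-sided contrasts and Benjamini-Hochberg adjustment over all analysed features in each. A gene is said to rise, fall or pass at an adjusted p under 0.05. The error is the spread among arrays of a group, whether pools of pups or single adults, with 1 variance per feature for all 10 groups. The spread was not equal: the SD of Gata3 ran from 0.05 in WT PND 3 to 0.745 in Tg PND 42 GF. That of Cd3e ran from 0.10 in WT PND 0 to 0.67 in Tg PND 42 SPF. Where adult Tg arrays spread more than the others, the shared error is smaller than their own spread would give.

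The transcripts and lists were chosen with earlier results of these data known. From each list the text names up to 4 genes that passed with the largest change, or up to 2 of highest mean where none passed, and the 4 genes most similar to each of Cd3e, Cd8a, Icos and Gata3. List genes without a feature of their own were not analysed here. Alternatives were another normalization, centring, weights, prior, filter, feature set, a replicate block, a 2-fold limit and each array left out. The procedure was tested on simulated data with 50 changed features per fold size, where all groups of a feature were given the same spread. At PND 42 in SPF mice the procedure recovered 43 of 50 at 2-fold and 17 of 50 at 1.5-fold with 13 false calls. In GF mice it recovered 40 and 21 of 50 with 11 false calls. Unequal spread between groups, as described above for Gata3 and Cd3e, was not simulated. These figures therefore do not give the recovery or the false calls for transcripts with such spread or near background. Sequence motifs and figures were made with Python 3.11.15.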

Additional observations from a re-analysis of the deposited data

Results flagged for a closer look

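Of 48 groups of 4 arrays looked at over the 8 transcripts, 1 held an array far from the others. In WT PND 3 Cd3g read 3.76 in replicate 3 against 3.27 to 3.32 in the other arrays. Chance gives such a gap in about 1 of 20 groups, and all 4 values are near background.

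The Tg effect on Icos differed between ages. It was larger at PND 42 than at PND 10 by 0.98 on the log2 scale (limma, adjusted p = 0.026) and larger than at PND 3 by 0.87 (adjusted p = 0.042). All 4 Tg arrays of PND 42 were above all WT arrays of that age, whereas at PND 3 and PND 10 the genotypes overlapped. Both calls lie close to the threshold, and a single array left out can end them.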

How the results depend on the processing

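The differences of Icos at PND 42 in both housings, of Cd3e in GF mice and of Cd2 at PND 3 and 10 kept their direction and call under all alternatives. Of the 8 transcripts, the number that passed in GF mice (6) was 2 when the compared groups were fitted alone and 3 with a 2-fold limit as well, and 3 to 6 with single arrays left out (3 without Tg replicate 3). In the fit on the compared groups alone Cd3d, Cd3g, Cd8a and Gata3 lost their calls there with unchanged differences. Between PND 0 and PND 3 array medians differed by -0.24 in WT and -0.25 in Tg mice, which centring removes, and 4 transcripts then passed in WT and 3 in Tg (1 each before). Centring raises this difference by the same amount in every feature. The share of all features was taken only for the main fit and the fit without GF Tg replicate 3. Counts under the other alternatives, centring included, have no such share beside them. The Tg count there was 0 when fitted alone, 0 with the 2-fold limit and 0 to 1 with single arrays left out (0 without Tg PND 0 replicate 1). For PND 42 minus PND 10 in WT mice (0) array weights, the filter on dim features and the compared groups alone each gave 1. For PND 10 minus PND 3 in Tg mice (0) quantile normalization again, array weights, the trend and robust prior, the filter and 1 feature per gene each gave 1, and leaving out single arrays gave 0 to 1 (1 without Tg PND 3 replicate 1). For GF minus SPF in Tg mice (0) single arrays left out gave 0 to 1 (1 without Tg GF replicate 1). With single arrays left out the count for PND 42 in SPF mice (2) was 2 to 3, and that for PND 42 minus PND 10 in Tg mice (4) was 3 to 6.

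The change of the Tg effect from PND 10 to PND 42 (1) gave 2 when fitted alone, 0 with the 2-fold limit and 0 to 2 with single arrays left out, 8 of which gave 0. That from PND 3 to PND 42 (1) gave 2 with array weights, 0 with all features kept, 0 with the 2-fold limit and 0 to 1 with single arrays left out, 10 of which gave 0. That from PND 0 to PND 3 (0) gave 0 to 1 with single arrays left out (1 without Tg PND 0 replicate 1). The causes were not tested. Cd8a in SPF mice, at 0.0035, turned to -0.0087 with quantile normalization again, -0.0174 with median centring and -0.0003 with array weights, and ran from -0.25 to 0.12 with single arrays left out. Cd4 in GF mice ran from -0.0376 to 0.19, the lowest without Tg replicate 3. In SPF mice Cd3g passed with array weights (adjusted p = 0.020) and with the filter (adjusted p = 0.048). The filter had kept Cd3g only through its adult Tg groups.

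Replicate numbers did not pair the arrays: deviations of WT and Tg arrays of the same number had correlations from -0.13 to 0.24. With the replicate block, the count for the change of the Tg effect from PND 3 to PND 42 was 0 (Icos, adjusted p = 0.055), and no other count moved by over 1.5 times. The filter on dim features kept 17771 features and 6 of the 8 transcripts. It kept a feature if its highest group mean was above 3.81. Cd3e, Cd3g, Cd8a, Icos and Gata3 met this only through adult Tg groups, so a pass under the filter is no separate support for them. Each transcript had a single feature, so that no other feature could be tried. Intensities near background limit Cd4, Cd3d, Gata3 and Cd8a most, since a change there can be larger than the intensities show.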
